A study of Mus musculus with 6 samples.

Results

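The Z-disc proteins and calsarcins described here are the products of 10 genes, Myoz1, Myoz2, Myoz3, Tcap, Myot, Synpo2, Ldb3, Pdlim3, Pdlim7 and Nebl. They were taken by name, as the 10 rows of the expression table that carry these symbols out of 16759 genes in all. RNA from hind leg muscles was sequenced in a control (Con) and an exercise (EX) group, each of 3 mice, and every mouse gave 1 library. All mice were male C57BL/6J animals, 8 weeks old when the experiment began. The EX group ran on an electric treadmill over 6 weeks, in 5 weekly sessions of 60 min, and its muscle was taken 24 h after the last session. The Con mice had no treadmill training. The sources used here do not say which of the hind leg muscles each library holds or when Con muscle was taken. The comparison of EX with Con asks how moderate-intensity training changed the transcripts of these proteins.

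The Z-disc is the protein plate at either end of a sarcomere, the contractile unit of muscle, where actin filaments of opposite polarity are cross-linked by alpha-actinin. The calsarcins (Myoz1, Myoz2, Myoz3) bind alpha-actinin and the phosphatase calcineurin, which acts on NFAT transcription factors and takes part in the control of muscle fibre type. Myoz1 and Myoz3 are known as the calsarcins of fast fibres, and Myoz2 as that of slow fibres and the heart. Tcap (telethonin) caps the end of titin in the Z-disc, Myot (myotilin) cross-links actin, and Synpo2 (myopodin) binds actin and filamin. Ldb3 (also called ZASP or cypher), Pdlim3 (ALP) and Pdlim7 (enigma) carry a PDZ domain that can bind proteins of the Z-disc and, in their longer forms, LIM domains. Nebl (nebulette) is the nebulin relative of cardiac muscle.

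Differences between the groups are given as log2 fold changes of EX over Con from edgeR's quasi-likelihood test. A gene is said to have risen or fallen when its Benjamini-Hochberg adjusted p over all 10883 genes tested was under 0.05. Levels of 1 gene in different libraries are given as CPM, which are counts brought to a shared library size by TMM, and levels of different genes are compared as TPM, which also divides by transcript length. Libraries held between 13845362 and 16240431 counts on genes. The skeletal fibre markers fixed as a check of the tissue, with 10 of 10 above the filter on low values, summed to between 178379 and 188112 TPM in Con and between 186273 and 190376 TPM in EX. Over all genes tested, 17.9% passed the threshold, 9.11% higher and 8.80% lower in EX. In CPM the 3 EX values lay wholly above or wholly below the 3 Con values for 33.7% of these genes. Of the 9 Z-disc genes tested, 5 were higher, 2 were lower and 2 did not pass, and the groups did not overlap for 7. The remaining gene, Nebl, was under the filter.

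Mouse promoter sequence was read for 6 of the 10 genes (Myoz2, Synpo2, Ldb3, Pdlim3, Pdlim7 and Nebl). Those of Myoz2, Ldb3 and Pdlim3 are shown, because Myoz2 changed most and the other two stand for the members with small increases. Each run holds the 250 bases before the annotated start of transcription, 5′ to 3′ on the strand of the gene, from RefSeq on GRCm38.p6. Capitals mark matches on either strand to an E-box (CANNTG), an MCAT element (CATTCC), a MEF2 site or a CArG box.
Myoz2, chr3:123034988-123035237, minus strand: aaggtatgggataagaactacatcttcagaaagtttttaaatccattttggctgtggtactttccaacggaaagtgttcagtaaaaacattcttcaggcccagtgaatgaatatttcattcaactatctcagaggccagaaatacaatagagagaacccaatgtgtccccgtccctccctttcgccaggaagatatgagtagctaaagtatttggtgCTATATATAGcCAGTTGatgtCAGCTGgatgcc
Ldb3, chr14:34588682-34588931, minus strand: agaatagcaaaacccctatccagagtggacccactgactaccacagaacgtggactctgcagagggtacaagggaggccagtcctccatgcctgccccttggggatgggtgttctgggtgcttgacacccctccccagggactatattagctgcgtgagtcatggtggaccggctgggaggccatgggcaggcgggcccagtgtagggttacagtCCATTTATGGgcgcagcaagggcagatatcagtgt
Pdlim3, chr8:45885237-45885486, plus strand: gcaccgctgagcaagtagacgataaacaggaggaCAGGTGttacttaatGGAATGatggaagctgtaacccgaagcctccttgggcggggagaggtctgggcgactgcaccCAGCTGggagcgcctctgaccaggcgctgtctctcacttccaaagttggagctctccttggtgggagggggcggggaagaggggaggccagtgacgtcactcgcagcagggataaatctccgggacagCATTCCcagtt

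The Myoz2 stretch held a MEF2 site whose first base lay at position -33 from the start, followed by E-boxes at -22 and -12. MEF2 is a transcription factor family of muscle, and E-boxes are the letters to which MyoD and its relatives bind. In windows of 300 bases (250 before the start and 50 after it), a MEF2 site was found in 3.2% of 32851 mouse promoters and, among the members with a window, in Myoz2 and Synpo2. E-boxes were found in 72.3% of promoters. The Ldb3 stretch held a CArG box, at -35, and no match to the other 3 motifs marked here. CArG boxes, to which serum response factor binds, were found in 1.6% of promoters and, among the members with a window, in Ldb3 and a window of Nebl. The Pdlim3 stretch held MCAT elements, the letters of TEAD factors, at -201 and -11, and E-boxes at -216 and -139. An MCAT element was found in 14.7% of promoters and, among the members with a window, in Pdlim3 and a window of Nebl. The NFAT core GGAAA, not marked in the sequences, occurred 2 times in the Myoz2 window, 1 time in those of Synpo2 and Pdlim7, and up to 4 times in a window of Nebl. It was found in 61.3% of promoters. A match is a stretch of letters in a reference sequence, and binding was not measured.

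The 10 transcripts spanned a wide range of levels per length, from among the most abundant in the muscle to barely detected. Tcap stood highest, at 4913 ± 289 TPM in Con (SD, n = 3) and 4403 ± 101 in EX, and ranked 18th by mean TPM among the genes tested. Myoz1 followed with 2738 ± 45.5 TPM in Con and 2927 ± 35.5 in EX, and Ldb3 with 1925 ± 27.0 and 1959 ± 24.1. Myot, Pdlim3 and Pdlim7 came next in that order, at 898 ± 22.5, 627 ± 14.3 and 465 ± 19.6 TPM in Con. The lower end held Synpo2, Myoz3 and Myoz2, at 171 ± 2.79, 89.1 ± 0.695 and 43.8 ± 4.84 TPM in Con. Nebl was listed between 0.07 and 0.16 TPM in Con and between 0.06 and 0.16 in EX. The order of the 10 was the same in EX as in Con, and among the 9 tested the ranges of neighbours in the order did not overlap in either group. Together the members took between 1.16% and 1.22% of the TPM of a Con library and between 1.14% and 1.16% of that of an EX library.

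Among the calsarcins, Myoz2 fell while Myoz1 and Myoz3 rose. Myoz2 (gene 59006) measured 28.0, 22.5 and 23.6 CPM in the Con mice and 13.1, 13.3 and 15.7 CPM in the EX mice. Every EX value lay below every Con value. The mean went from 24.7 ± 2.89 CPM (SD, n = 3) to 14.0 ± 1.49, a log2 fold change of -0.81 (SE 0.09, edgeR adjusted p = 8.74e-08), or 0.571 times the Con level with a 95% interval from 0.504 to 0.646. These levels rest on 354 to 390 counts in a Con library and 207 to 248 in an EX library. By size of change Myoz2 ranked 112th of the 10883 genes tested, and the next member, Myoz3, ranked 926th.

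Myoz3 (gene 170947) measured 188, 185 and 183 CPM in Con and 222, 242 and 231 CPM in EX. All 3 EX mice stood above all 3 Con mice. The log2 fold change was 0.32 (SE 0.04, edgeR adjusted p = 8.27e-07), an increase to 1.25 times the Con level (95% interval 1.18 to 1.32). Myoz1 (gene 59011), the abundant calsarcin, measured 1793, 1788 and 1810.1 CPM in Con and 2019.8, 2060.4 and 2075 CPM in EX. Its groups did not overlap either, and the coefficient of variation was 0.653% in Con and 1.39% in EX. The log2 fold change of Myoz1 was 0.19 (SE 0.03, edgeR adjusted p = 5.49e-05), or 1.14 times the Con level.

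**Figure D1:**
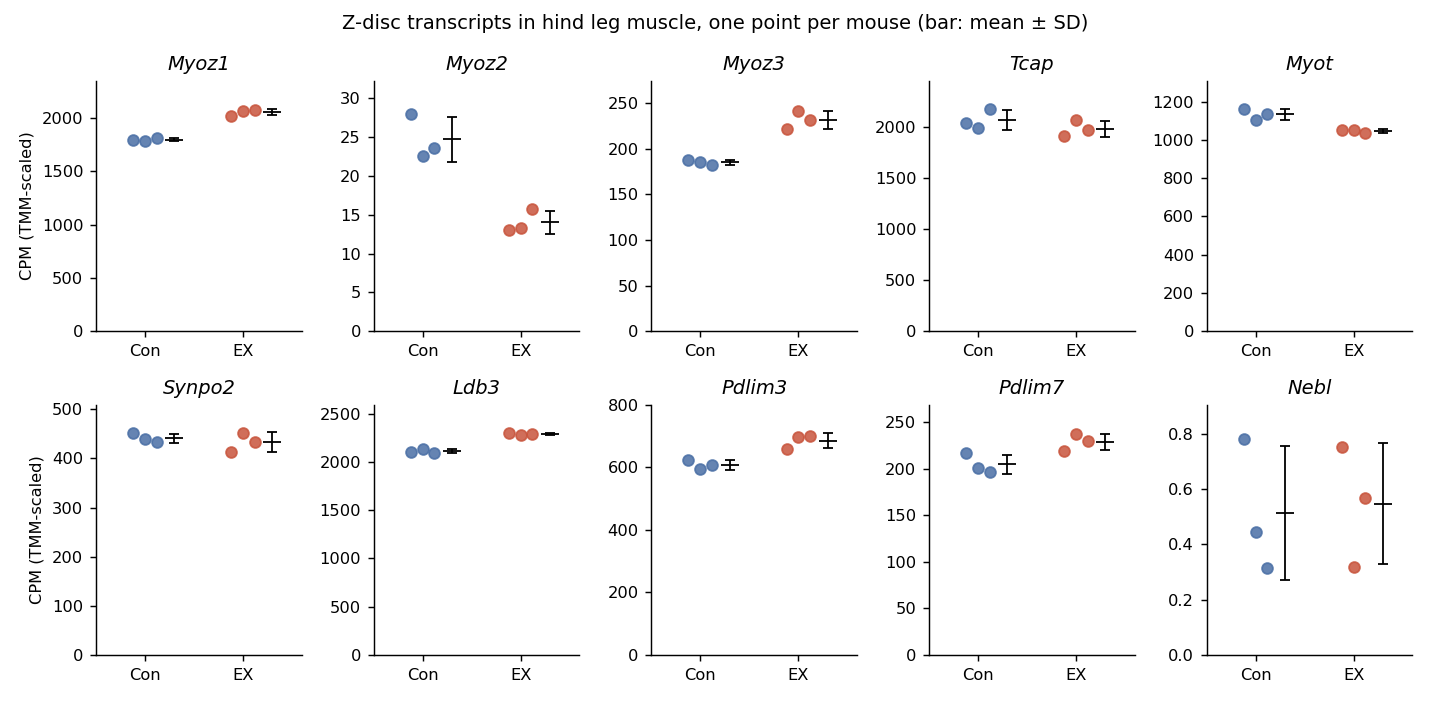
Level of each of the 10 Z-disc transcripts in CPM scaled by TMM (vertical axes, each from 0), with 1 point per mouse for the 3 Con and 3 EX mice and a bar for the mean ± SD. The EX points of Myoz2 sit between 13.1 and 15.7 CPM, all below the Con points, those of Myoz1, Myoz3, Ldb3, Pdlim3 and Pdlim7 sit above the Con points, and the groups overlap for Tcap, Synpo2 and Nebl.

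On the TPM scale, where the calsarcins can be added, the sum of the family was 2870.4 ± 43.3 TPM in Con and 3055 ± 36.5 in EX (SD, n = 3). Myoz1 supplied 95.4% ± 0.223 of that sum in Con and 95.8% ± 0.117 in EX. The share of Myoz2 was 1.73%, 1.40% and 1.45% in the Con mice and 0.719%, 0.718% and 0.839% in the EX mice. The share of Myoz3 was 3.10% ± 0.0681 in Con and 3.42% ± 0.116 in EX. For each of the 3 shares the groups did not overlap, and the two-sided exact permutation test gave p = 0.1 (0.1 after adjustment over the 3 shares), the smallest p that 3 mice against 3 can give. The direction of the Myoz1 share depended on the unit, since without the correction for length it was 0.23 percentage points lower in EX, while the Myoz2 and Myoz3 shares kept their directions.

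The fall of Myoz2 stood beside higher levels of sarcomere genes of slow fibres. The largest log2 fold changes of the slow-fibre list were those of Myh7 (slow myosin heavy chain) and the slow troponins Tnni1, Tnnc1 and Tnnt1, at 6.65, 4.84, 4.84 and 4.26. Myh7 and Tnni1 stood at 0.26 and 0.777 TPM in Con and passed the filter on low values only through their EX level, so no count over the tested genes of the list is given. Myh7b, another gene of the list, was under the filter and did not pass in the unfiltered fit (-0.02, edgeR adjusted p = 0.979). Genes of the list with higher Con levels, named after their values were seen, were Atp2a2 (the slow calcium pump) at 1.13, Tpm3 at 0.58, Myl3 at 0.40 and Casq2 at 0.25, and all 4 passed. The summed level of the list went from between 192 and 207 TPM in Con to between 514 and 555 TPM in EX. On the TPM scale Myoz2 stood at 49.2, 39.9 and 42.2 in the Con mice and at 21.95, 21.7 and 26.0 in the EX mice, where Myh7 stood at 0.24, 0.23 and 0.31 in Con and at 24.35, 26.25 and 23.5 in EX. The level of Myoz2 was thus far above that of Myh7 in every Con mouse and of similar size in the EX mice. The Con levels of Myh7 rest on 13, 14 and 19 counts.

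Of the 14 fast-fibre sarcomere genes, 10 rose and 2 fell, beside 9.11% higher and 8.80% lower over all genes tested. Their median log2 fold change was 0.16. The sums were between 242119 and 245225 TPM in Con and between 256984 and 260313 TPM in EX. The increase of Myoz1 (0.19) lay near that median. The increase of Myoz3 (0.32) lay among the largest of the list, which were those of Pvalb (parvalbumin, a calcium buffer) at 0.35, Mylpf (a fast myosin light chain) at 0.30 and Casq1 (calsequestrin) at 0.29. Myh2, the myosin of fast oxidative fibres, measured 767, 743 and 755 CPM in Con and 440.4, 457 and 452 CPM in EX. Its log2 fold change of -0.75 (SE 0.03, edgeR adjusted p = 1.39e-15) was close in size to that of Myoz2. The part of fibre composition in the results for the members was not tested. Fewer fibres of a type, less RNA per fibre and a difference in the hind leg muscles sampled cannot be told apart here.

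**Figure D2:**
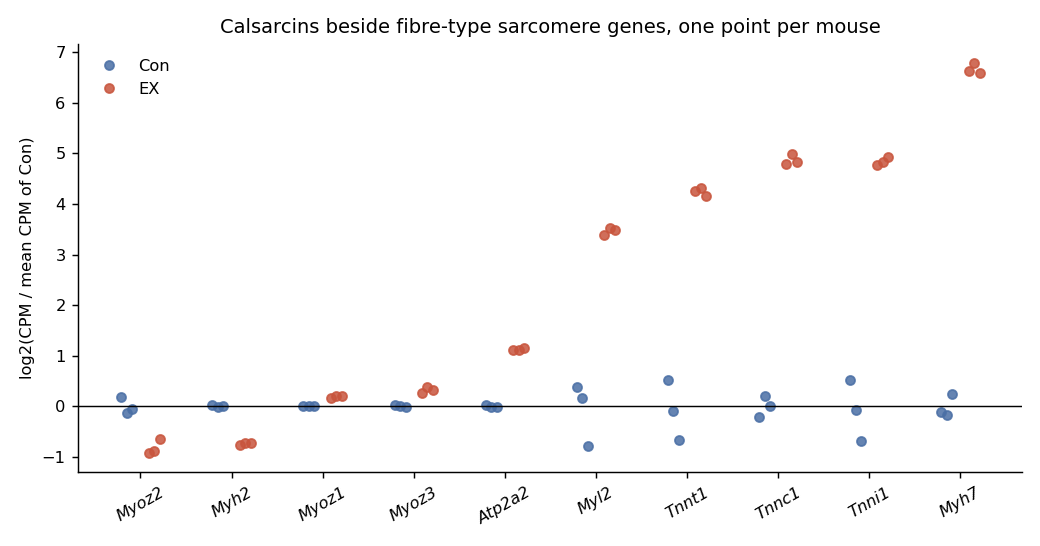
Log2 of CPM over the mean Con CPM of the same gene (vertical axis) for the 3 calsarcins and 7 sarcomere genes (horizontal axis), 1 point per mouse, Con in blue and EX in red. The EX points of Myoz2 lie below 0 as those of Myh2 do, while those of Myh7, Tnni1, Tnnc1, Tnnt1, Myl2 and Atp2a2 lie above their Con points.

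The calsarcins bind calcineurin, whose pathway was followed through 12 genes for calcineurin subunits, NFAT factors and calcineurin inhibitors. All 12 were tested, and 0 rose and 3 fell (edgeR, adjusted p under 0.05), beside 17.9% called over all genes, with a median log2 fold change of -0.05. The 3 that fell encode proteins known to bind and inhibit calcineurin, a grouping made after their values were seen. Rcan3 had a log2 fold change of -0.38 (adjusted p = 0.0215), Cabin1 of -0.25 (adjusted p = 0.0144) and Rcan2 of -0.21 (adjusted p = 0.00266). Of 3 genes named after their values were seen, Rcan1, also an inhibitor and an NFAT target gene, stood at -0.09 (SE 0.04, adjusted p = 0.202) and did not pass. The catalytic subunit genes Ppp3ca and Ppp3cb stood at 0.09 each and did not pass either.

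The structural members Tcap, Myot and Synpo2 differed between the groups by less than 10% of their Con level in CPM. Tcap (gene 21393) measured 2041, 1997 and 2179 CPM in Con and 1917, 2069.8 and 1973 CPM in EX. The groups overlapped in CPM, with a log2 fold change of -0.06 (95% interval -0.14 to 0.01, edgeR adjusted p = 0.270). Myot (gene 58916) measured 1159.9, 1103 and 1135 CPM in Con and 1052, 1049.7 and 1035 CPM in EX. All EX values of Myot lay below the lowest Con value, and the log2 fold change was -0.12 (SE 0.03, edgeR adjusted p = 0.0136), a fall to 0.923 times the Con level. Without EX replicate 3 the change of Myot was -0.11 and did not pass (adjusted p = 0.0911). Synpo2 (gene 118449) measured 452, 439 and 434 CPM in Con and 414, 452 and 434 CPM in EX. In CPM the groups of Synpo2 overlapped, with a log2 fold change of -0.03 (95% interval -0.10 to 0.05, edgeR adjusted p = 0.679). In the authors' TPM they did not, at 169 to 174 in Con and 153 to 162 in EX, and limma on TPM gave -0.12 (adjusted p = 0.0570). The TPM ranges of Tcap did not overlap either, at 4713 to 5244 in Con and 4325 to 4517 in EX.

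Synpo2 is known to be made in smooth muscle as well. Counts in the marker lists below stand beside 9.11% called higher and 8.80% called lower over all genes tested. The list of smooth muscle and pericyte markers, with 9 of 10 above the filter, had 1 gene higher and 4 lower in EX and summed to between 469.8 and 491 TPM in Con and between 387 and 406 TPM in EX. The genes of the list, of which Acta2, Tagln, Smtn and Cnn1 were named after their values were seen, did not move alike. Myh11 (smooth muscle myosin) fell by 0.30 on the log2 scale and the pericyte genes Rgs5, Pdgfrb and Kcnj8 by 0.36, 0.40 and 0.45, while Acta2 (smooth muscle actin) rose by 0.15 (edgeR adjusted p = 0.0344). Tagln (-0.01), Smtn (-0.04) and Cnn1 (0.44, edgeR adjusted p = 0.249) did not pass. Endothelial markers, with 10 of 10 above the filter, had 1 higher and 4 lower, at 400.9 to 410.1 TPM in Con and 340.02 to 347 TPM in EX. Fibroblast and tendon markers (5 higher of 9 tested) went from 546 to 579 TPM in Con to 609 to 636 TPM in EX. Macrophage markers (6 higher of 7 tested) summed to 64.2 to 67.7 TPM in Con and 111 to 119.7 TPM in EX. Adipocyte markers (5 higher and 1 lower of 8 tested) lay at 1216 to 1344 TPM in Con and 1145 to 1194 TPM in EX. Fabp4 (956 TPM in Con and 836 in EX) and Lpl (193 and 137) made up most of that sum, while Adipoq, Cfd, Retn and Cidec rose with log2 fold changes of 1.19 to 1.55. Genes of embryonic or regenerating fibres (4 higher of 5 tested) moved from 695 to 762 TPM in Con to 1964 to 2073 TPM in EX, most of it Actc1, the cardiac actin of developing muscle. No marker in these lists was at 0 in all 6 libraries, and the part of other cell types in the results for the members was not tested.

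The 3 PDZ-LIM genes rose together by small amounts. Ldb3 (gene 24131) measured 2105, 2134 and 2092 CPM in Con and 2303, 2279.99 and 2292 CPM in EX. In CPM the groups stood apart with little spread, and the log2 fold change was 0.12 (SE 0.03, edgeR adjusted p = 0.00708). Pdlim3 (gene 53318) measured 624, 593 and 606 CPM in Con and 658, 697 and 700.3 CPM in EX. Every EX value was above the highest Con value, and the log2 fold change was 0.17 (SE 0.04, edgeR adjusted p = 8.58e-04). Pdlim7 (gene 67399) measured 216, 201 and 196 CPM in Con and 219, 237 and 229 CPM in EX. Its lowest EX value lay just above its highest Con value, and the log2 fold change was 0.16 (SE 0.04, edgeR adjusted p = 0.00722). Without EX replicate 2 Pdlim7 no longer passed (0.13, adjusted p = 0.0628). In the authors' TPM the groups of Ldb3 overlapped, at 1896.5 to 1950 in Con and 1936 to 1984 in EX. Those of Pdlim7 overlapped as well, at 451 to 488 in Con and 470 to 493 in EX, while those of Pdlim3 did not.

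These small increases held with edgeR under other size factors (Ldb3 0.12, adjusted p = 0.00718 with median ratios) and did not pass with limma on FPKM or TPM, which changes test, unit and scaling together. With limma on the authors' TPM, in which the median of all genes tested was lower by 0.09 on the log2 scale than with edgeR, Ldb3 stood at 0.03 (adjusted p = 0.591), Pdlim3 at 0.08 (adjusted p = 0.144) and Pdlim7 at 0.05 (adjusted p = 0.395). Myoz1 missed the threshold on that scale as well (0.10, adjusted p = 0.0611) and Tcap passed it (-0.16, adjusted p = 0.0406). Measured from the median of all genes in the same fit, Ldb3 stood at 0.12 with edgeR and at 0.12 with TPM. Under limma on TPM 16.8% of all calls were higher in EX, and under limma on FPKM 28.4%, beside 50.8% with edgeR. Myoz2 (from -0.91 to -0.72) and Myoz3 (from 0.23 to 0.35) passed in all 15 alternative fits.

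**Figure D3:**
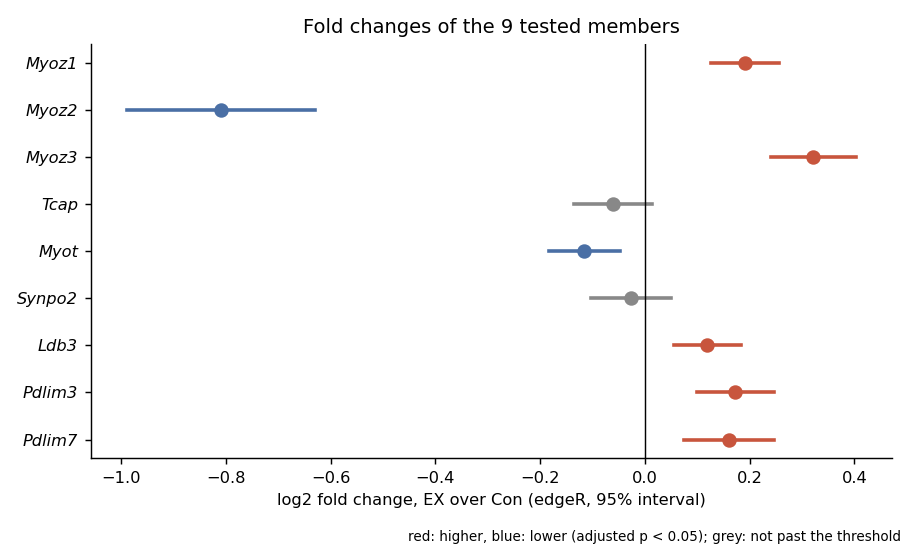
Log2 fold change of EX over Con with its 95% interval from edgeR (horizontal axis) for the 9 tested members (vertical axis), red for higher, blue for lower and grey for not past the threshold. Myoz2 lies at -0.81, the other members between -0.12 (Myot) and 0.32 (Myoz3).

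**Figure D4:**
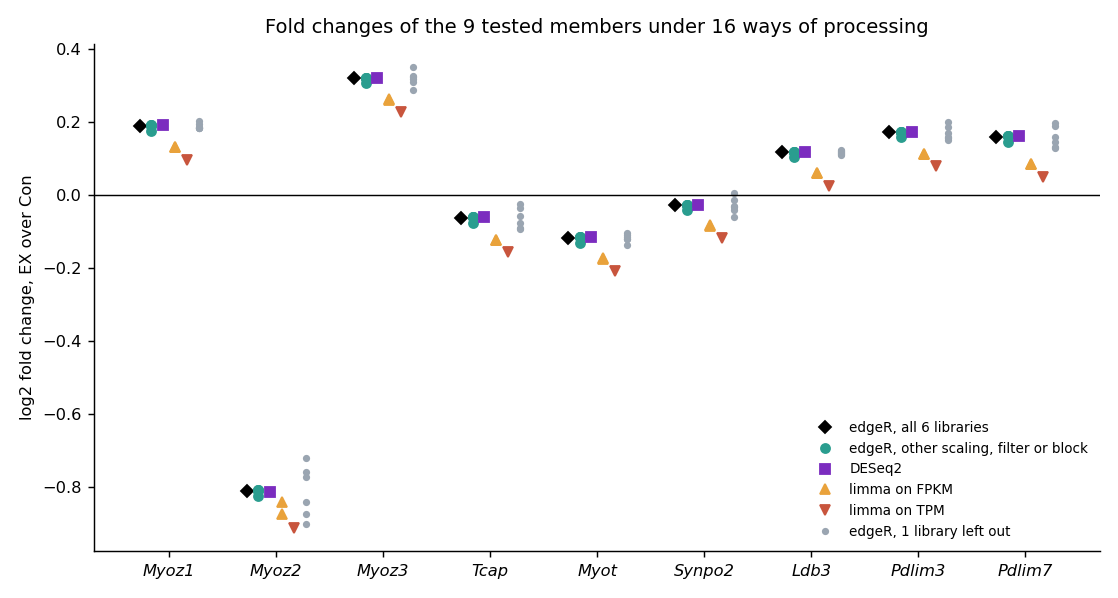
Log2 fold change of EX over Con (vertical axis) of the 9 tested members (horizontal axis) in the edgeR fit on all 6 libraries and in 15 alternatives, with symbols for the kind of alternative. The points of Myoz2 lie between -0.91 and -0.72, and the limma points on FPKM and TPM lie below the edgeR diamond for each member.

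Nebl (gene 74103) was read 11, 7 and 5 times in the Con libraries and 12, 5 and 9 times in the EX libraries. These are levels between 0.313 and 0.783 CPM, against a limit of 0.188 to 0.215 CPM for a count of 0 (3 counts, counting error only). The groups overlapped, and a fit without the filter gave a fold of 1.09 with a 95% interval from 0.580 to 2.04 (edgeR adjusted p = 0.905). A change within that interval was not detectable at this depth. Neb, the nebulin gene of skeletal muscle, measured 4112, 3828 and 3977 CPM in Con and 4117, 3855 and 4012 CPM in EX. It did not pass, with a log2 fold change of 0.01 (SE 0.03, adjusted p = 0.903).

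Relatives of the members in the same protein families were 11 genes, all tested. Palld and Pdlim5 rose, Pdlim1, Nrap and Synpo fell, and 6 did not pass, beside 17.9% called over all genes tested. The median log2 fold change of the 11 was 0.01. Pdlim1, another PDZ-LIM gene, measured 35.8, 33.8 and 29.6 CPM in Con and 25.3, 23.3 and 21.3 CPM in EX. Its log2 fold change of -0.50 (SE 0.07, edgeR adjusted p = 1.17e-05) was opposite in sign to those of Pdlim3, Pdlim7 and Ldb3. Nrap, a nebulin relative of myofibril assembly, measured 1755, 1618 and 1589.9 CPM in Con and 1236, 1279 and 1235 CPM in EX, a log2 fold change of -0.40 (SE 0.04, edgeR adjusted p = 3.16e-09). Palld (palladin), of the family of myotilin, had a log2 fold change of 0.33 (edgeR adjusted p = 1.66e-06) where Myot stood at -0.12. Synpo fell by 0.18 on the log2 scale (edgeR adjusted p = 0.00244), while Synpo2 did not pass.

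A wider list of 40 other genes of the Z-disc and its neighbourhood held genes that rose and genes that fell. Of the 39 tested, 13 rose, 10 fell and 16 did not pass, the groups did not overlap for 23, and the median log2 fold change was 0.01. The list shares Pdlim1, Pdlim5, Nrap, Neb, Palld, Mypn and Synpo2l with the relatives above. Ankrd2, which encodes a stretch-responsive ankyrin repeat protein, had the largest change, from 37.9, 34.7 and 37.4 CPM in Con to 20.6, 20.8 and 22.5 CPM in EX. Its log2 fold change was -0.78 (SE 0.06, edgeR adjusted p = 5.40e-10), close to that of Myoz2. Lmcd1, a LIM-domain protein, followed with -0.67 (SE 0.05, edgeR adjusted p = 2.41e-11). The alpha-actinin genes, named after their values were seen, moved in opposite directions. Actn3, the alpha-actinin of fast fibres, had a log2 fold change of 0.20 (SE 0.03, edgeR adjusted p = 2.38e-05) and Actn2 of -0.11 (SE 0.04, edgeR adjusted p = 0.0327). With limma on TPM, 5 of the list were higher and 10 lower.

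**Figure D5:**
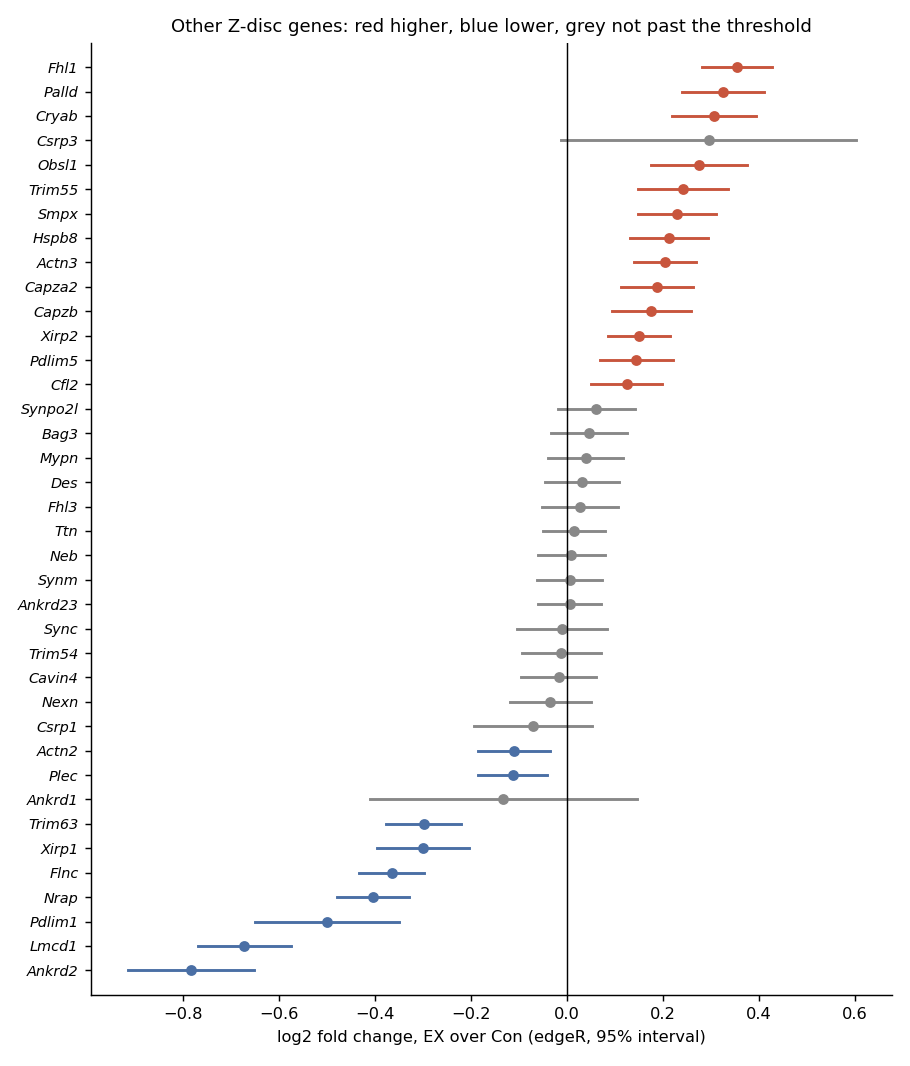
Log2 fold change of EX over Con with its 95% interval from edgeR (horizontal axis) for the tested genes of the wider Z-disc list that are reported here (vertical axis), ordered by value, red for higher, blue for lower and grey for not past the threshold. The points run from Ankrd2 at -0.78 to Fhl1 at 0.35, with the 16 genes that did not pass in grey, among them Csrp3 at 0.29.

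Several of these genes have transcripts of different lengths, and the ratio of count to FPKM in a library gives the effective length over which the authors divided the reads of a gene. No change of that length between the groups was found in the members. Across 10873 genes, 0 passed with limma at an adjusted p under 0.05 and 595 (5.47%) had an unadjusted p under 0.05. The smallest adjusted p of all was 0.0631. Tpm3 of the slow-fibre list, which is no member and was named after its value was seen, had this p, with an implied length of 1847 bases in Con and 1313 in EX, and its TPM and its part in the sum of that list rest on these lengths. The log2 ratios of EX over Con lay between -0.00 (Synpo2) and 0.02 (Pdlim7) for the 9 members tested. Pdlim7 had the lowest unadjusted p of the members, 0.0362, with an adjusted p of 0.830 (limma). Its implied length was 649 bases in Con and 657 in EX, and that of Ldb3 was 1619 and 1621. Implied lengths are not full transcript lengths, since for Tcap and Myoz3, each with 1 annotated transcript (GENCODE vM21), they were 325 and 364 bases shorter than annotated. Levels per length of Pdlim7 and Ldb3, and so their places in the order of TPM, rest on these lengths.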

How the data were processed

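RNA from hind leg muscles of 3 Con and 3 EX mice was sequenced by the authors with paired-end reads on DNBseq machines, 1 library per mouse. The study's methods name HISAT, GRCm39 and DESeq, whereas the submitters' processing notes name cutadapt, featureCounts, MultiQC and GRCm38.p6. The tool that gave counts that are not whole is not given in the sources used here. The authors deposited expected counts, FPKM and TPM per gene and library, with symbols and Entrez numbers but no positions. Between 4.18% and 4.44% of counts in a library were not whole. The table's 6 columns of group means were not used. Replicates were not pooled, and whether strand was used in counting is not given in the sources used here.

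The expected counts, as deposited by the authors, were rounded and compared with edgeR 4.0.16 (glmQLFit, glmQLFTest) in R 4.3.3 after TMM scaling, for the 10883 genes whose mean reached 1 FPKM. Values of genes under this filter come from an unfiltered fit. Implied transcript lengths (count over FPKM and library total) were compared with limma 3.58.1. The FPKM and TPM values deposited by the authors are normalized for depth and length, and were tested on log2(value + pseudocount) scales only as alternatives, in which changes of low genes are understated. The common biological coefficient of variation was 0.0328, and no libraries were duplicates (chi-square per gene of 1.81 to 4.29 within groups over 10485 genes). Scripts were tested on simulated data. Alternatives were DESeq2 1.42.0, limma on FPKM or TPM, other scalings and filters, a replicate block and each library left out in turn. The members and lists were chosen with earlier results of these data known. All members are named; of other lists, up to 4 genes with the largest change past the threshold are named, plus genes that a statement on a member needs and others said in place to be named after their values were seen. The labels give no batch. The p-values of edgeR, DESeq2 and limma rest on the spread between 3 mice a group, drawn toward that of the other genes in the fit. They thus do not measure the spread between the mice for 1 gene alone. Coordinates are from RefSeq on GRCm38.p6 and serve only for the promoters. Of the wider Z-disc list, 1 gene enters the counts but is not reported by name here.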

Additional observations from a re-analysis of the deposited data

How the results depend on the processing

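The calls of Myoz2 and Myoz3 held in all 15 alternatives. Replicate numbers did not pair the samples, since deviations of same-numbered libraries correlated at -0.08, -0.05 and -0.07 and no library correlated best with its own number. With a replicate block in edgeR, 1782 genes passed in place of 1949, and the members' counts stayed at 5 higher and 2 lower. DESeq2 called 1228 genes, 643 higher and 585 lower, with 5 members higher and 2 lower. Genes higher in EX numbered 411 with limma on log2(FPKM + 0.1), 411 on log2(FPKM + 1) and 340 on log2(TPM + 0.1), where 1684 were lower. In the same fits 2, 2 and 1 members and 7, 7 and 5 genes of the wider list were higher. The calls of Ldb3, Pdlim3 and Pdlim7 were lost in these 3 fits, in which the median of all genes shifted by -0.05, -0.05 and -0.09. Without EX replicate 1 the change of Synpo2, which passed in no fit, was 0.0059 (from -0.059 to 0.0059 with 1 library left out in turn). With 1 library left out in turn, 4 to 5 members were higher (4 without EX replicate 2) and 1 to 2 lower (1 without EX replicate 3, which ended the call of Myot), and all calls ranged from 1344 to 1857. From CPM without a length correction, the EX minus Con differences of the shares of Myoz1, Myoz2 and Myoz3 were -0.23, -0.62 and 0.84 percentage points. Genes with a changed implied length numbered 1 (Dgkz, named after its value was seen) from count over TPM and 0 to 2 with a library left out, none of them a member. The cause of these shifts was not tested.

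Depth limited the statement on Nebl, and 3 mice against 3 cannot reach a permutation p under 0.1 for the shares.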

Other observations

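Among genes of the wider Z-disc list not described above, all named after their values were seen, some rose and some fell. Capza2 and Capzb, which encode subunits of the capping protein that holds actin ends at the Z-disc, had log2 fold changes of 0.19 (edgeR adjusted p = 4.70e-04) and 0.18 (edgeR adjusted p = 0.00221). Cryab and Hspb8, small heat shock proteins, stood at 0.31 (edgeR adjusted p = 5.24e-06) and 0.21 (edgeR adjusted p = 2.66e-04), whereas their co-chaperone Bag3 did not pass (0.05, edgeR adjusted p = 0.453). The filamin Flnc fell by 0.37 on the log2 scale (edgeR adjusted p = 3.71e-09). Xirp1 and Xirp2, which both encode actin-binding repeat proteins, moved in opposite directions, at -0.30 and 0.15 (edgeR adjusted p = 2.55e-05 and 0.00109). Trim63, a ubiquitin ligase of muscle breakdown, fell by 0.30 (edgeR adjusted p = 1.60e-06), and its relative Trim55 rose by 0.24 (edgeR adjusted p = 3.63e-04). With limma on TPM, which changes test, unit and scaling together, 5 genes of the list were higher and 10 lower in EX in place of 13 and 10. With edgeR under other size factors 13 were higher.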
